A study of Mus musculus with 6 samples.

Results

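The myeloid C-type lectin receptors examined here are 10 genes, Clec4a1, Clec4a2, Clec4a3, Clec4d, Clec4e, Clec4n, Clec5a, Clec7a, Clec10a and Clec12a, taken by symbol from a table of 57180 mouse genes. All 10 had enough reads to be among the 14761 genes tested. The RNA came from the livers of male C57BL/6J mice, 6 to 8 weeks old, given CCl4 (2.5 ml/kg of a 20% solution in olive oil) into the peritoneum 2 times a week for 4 weeks, a standard model of liver fibrosis, with the organs collected 48 h after the last dose. Cells falling in the CD3- NK1.1+ gate, which defines NK cells in this strain, were separated by surface CD36, a fatty acid transporter, into CD36+ NK and CD36- NK. Both fractions therefore come from fibrotic livers, and no fraction from untreated liver was part of the comparison. Each fraction had 3 libraries, described as biological triplicates and made from 400 ng of RNA, but the number of mice behind each is not stated. P-values therefore measure only the spread between these 6 libraries, which may be technical.

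C-type lectin receptors are surface proteins whose extracellular domain binds sugars or other ligands of microbes and damaged cells. Macrophages, monocytes, neutrophils and dendritic cells carry most of them. Activating members signal through the kinase Syk, either by pairing with an adaptor such as the Fc receptor gamma chain (Fcer1g) or DAP12 (Tyrobp), or through a motif in their own tail, and Syk leads through Card9 to NF-kB. Inhibitory members instead recruit phosphatases such as SHP-1 (Ptpn6).

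Of the 10 genes, 4 were called higher in CD36+ NK: Clec4e, Clec4d, Clec4n and Clec4a1. A gene was called where edgeR's quasi-likelihood test gave a Benjamini-Hochberg adjusted p below 0.05 over all tested genes and the fold change was above 2, which held for 5.96% of tested genes in either direction and 2.98% in this direction. The adjusted p alone was below 0.05 in 4 of the 10 genes in this direction and in 5.07% of tested genes, the unadjusted p in 7 and in 14.2%. The fitted value was higher in 8 of the 10, as in 51.9% of tested genes, and in 7 of the 10 every CD36+ NK library lay above every CD36- NK library, as in 17.0% of tested genes. No member was called lower by edgeR or by DESeq2, where 2.98% of tested genes were called lower by edgeR, and 1 member, Clec10a, was lower at an unadjusted p below 0.05. The median log2 fold change of the 10 genes was 1.20, beside 0.01 over all tested genes. In bulk RNA, more cells of a type and more RNA per cell cannot be told apart.

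The libraries held between 10292480 and 13787189 counts, and replicates varied by a biological coefficient of 20.3%. The log2 fold change of Cd36 itself, in the direction of the sort, was 3.27 (edgeR adjusted p = 0.00615). Klrb1c, which encodes NK1.1 and was required by the gate in both fractions, was lower in CD36+ NK (log2 fold change -2.46, edgeR adjusted p = 0.000428). In all, 9 of 10 NK cell markers were called lower, among them Gzma (-2.57) and Il2rb (-2.20), with a median of -2.45 and a summed level of 1119 to 1337 CPM (counts scaled for library size by TMM) against 5392 to 6929. Of 12 tested macrophage and Kupffer cell markers, 5 were called higher by edgeR (Adgre1, Csf1r, Marco, Cd68 and Cd163) and 9 by DESeq2 (these with C1qa, C1qb, C1qc and Cd5l), and 11 were higher without overlap between the fractions, with a median log2 fold change of 2.84 and a summed level of 6849 to 9715 CPM in CD36+ NK against 2485 to 5884 in CD36- NK. Lyz2, which made up 35.9% to 88.1% of that sum, had a log2 fold change of 0.10 (edgeR adjusted p = 0.882), while Csf1r had 1.89 (edgeR adjusted p = 0.0378). No marker of any list was at 0 in all 6 libraries, and the part of these other cells in the results below was not tested.

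Promoter sequence is shown for 5 members, chosen as 3 genes called higher (Clec4e, Clec4d and Clec4a1), a gene of the same chromosomal cluster that was not called (Clec4a2), and Clec12a from another cluster. RefSeq windows on build GRCm38.p6, running from 250 bases before to 50 after the gene start, matched 8 of the 10 members and gave 10 windows. Each line below is the 250 bases before the start, read 5′ to 3′ on the gene's strand, with capitals marking matches to motifs bound by myeloid transcription factors.
Clec4e: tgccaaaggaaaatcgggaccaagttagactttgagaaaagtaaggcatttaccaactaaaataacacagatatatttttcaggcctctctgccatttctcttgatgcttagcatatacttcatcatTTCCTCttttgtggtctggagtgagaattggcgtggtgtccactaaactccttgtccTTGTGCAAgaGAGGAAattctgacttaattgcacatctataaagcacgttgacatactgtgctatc
Clec4d: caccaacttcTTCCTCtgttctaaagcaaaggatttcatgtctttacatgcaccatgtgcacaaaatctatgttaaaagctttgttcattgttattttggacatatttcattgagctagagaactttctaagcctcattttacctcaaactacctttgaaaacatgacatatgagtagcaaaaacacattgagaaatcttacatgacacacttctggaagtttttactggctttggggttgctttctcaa
Clec4a1: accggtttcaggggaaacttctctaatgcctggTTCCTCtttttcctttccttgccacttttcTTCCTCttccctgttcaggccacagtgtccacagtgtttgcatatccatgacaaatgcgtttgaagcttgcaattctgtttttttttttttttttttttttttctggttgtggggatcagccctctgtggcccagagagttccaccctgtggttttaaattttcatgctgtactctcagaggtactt
Clec4a2: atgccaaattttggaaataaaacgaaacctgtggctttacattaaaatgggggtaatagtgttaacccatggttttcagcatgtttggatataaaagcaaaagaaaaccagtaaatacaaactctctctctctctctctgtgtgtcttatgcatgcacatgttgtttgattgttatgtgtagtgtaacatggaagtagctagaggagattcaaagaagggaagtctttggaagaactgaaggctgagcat
Clec12a: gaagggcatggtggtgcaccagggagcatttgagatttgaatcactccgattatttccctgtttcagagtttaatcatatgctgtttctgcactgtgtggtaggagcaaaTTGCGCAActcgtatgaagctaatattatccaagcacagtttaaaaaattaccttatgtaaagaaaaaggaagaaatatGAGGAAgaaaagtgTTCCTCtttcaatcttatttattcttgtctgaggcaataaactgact
These stretches are chr6:123289872-123290121 on the minus strand for Clec4e, chr6:123261857-123262106 for Clec4d, chr6:122921598-122921847 for Clec4a1, chr6:123122440-123122689 for Clec4a2 and chr6:129349994-129350243 for Clec12a, the last 4 on the plus strand. The letters GAGGAA, the core of sites for PU.1 (Spi1), on either strand, were found in the windows of 7 of the 8 matched members and of 31.3% of 27025 genes with windows of the same length, a gene counting once however many windows it had. Clec7a and Clec4a3 each had 2 windows, which shared 294 and 171 of their 300 bases. The letters TTGCNNAA, a form of the C/EBP site, occurred in 2 of 8 members and in 12.2% of all genes. A form of the NF-kB site, GGG and TTTCC with any 2 bases between them, occurred in 0 of 8 and in 1.89% of all. The window of Clec4e held a C/EBP match at position -66, counted from 0 at the first transcribed base, followed by a PU.1 core at -56, and a further PU.1 core at -123. Clec12a held the other C/EBP match, at -140, with PU.1 cores at -61 and -47. Clec4d had PU.1 cores at -240 and, within the transcribed bases not printed, at 7 and 39, Clec4a1 at -217 and -187, and Clec4a2 had no match to any motif. The matched members not printed, none of them called by edgeR, also held PU.1 cores. These were at -50 for Clec4a3, at -81 and -55 for Clec5a, and at -96 or -90 for Clec7a, depending on the window. No match overlapped another. A match describes these letters only and shows no binding.

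The receptors that pair with the Fc receptor gamma chain were the members with the largest fold changes in the fit of all libraries. This order was not firm. Without CD36+ NK replicate 1 the log2 fold change of Clec4a1 (1.73) was above that of Clec4d (1.58). Without CD36- NK replicate 2 it was 1.88 for Clec4a1 and 1.83 for Clec4e. Clec4e, known as Mincle, recognises mycobacterial glycolipids and a nuclear protein released by dying cells. Its gene (ENSMUSG00000030142) is on chromosome 6, minus strand, 123258748 to 123266829. Gene positions are the table's own, for which no build is named. It was at 23.8, 27.7 and 21.5 CPM in CD36+ NK replicates 1 to 3 and at 9.99, 7.78 and 3.52 CPM in CD36- NK replicates 1 to 3. The lowest CD36+ NK library was thus 2.15-fold above the highest CD36- NK library, the widest gap of any member. The means were 24.3 ± 3.14 and 7.10 ± 3.29 CPM (SD, n = 3 each), and the log2 fold change was 1.77 (standard error 0.337, 95% interval 0.97 to 2.56, edgeR adjusted p = 0.0216).

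Clec4d, the gene next to Clec4e (ENSMUSG00000030144, plus strand of chromosome 6, 123239070 to 123252224), encodes MCL, which forms a complex with Mincle on myeloid cells. It was low, at 15.9, 8.09 and 5.65 CPM in CD36+ NK and 2.92, 2.30 and 1.56 CPM in CD36- NK, or 16 to 179 counts a library. The groups did not overlap, although the CD36+ NK libraries differed among themselves by 2.82-fold. The log2 fold change was 2.11 (standard error 0.438, 95% interval 1.08 to 3.14, edgeR adjusted p = 0.0277). The highest library, CD36+ NK replicate 1, was also the one with the most neutrophil marker RNA in its fraction, 5759 CPM over the list against 950 and 1205 CPM in replicates 2 and 3, and none of the 13 neutrophil markers was called by edgeR between the fractions (1 was higher and 0 lower at an unadjusted p below 0.05, and DESeq2 called 1). The part of neutrophil RNA in the level of Clec4d was not tested.

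Clec4n (ENSMUSG00000023349, chromosome 6, 123206802 to 123223980) encodes Dectin-2, a receptor for fungal mannans, and had the largest fold change and the largest standard error of the 10 genes. It was at 65.1, 74.4 and 149 CPM in CD36+ NK and at 8.61, 33.4 and 6.35 CPM in CD36- NK. The fractions did not overlap, but CD36- NK replicate 2 lay 5.26-fold above CD36- NK replicate 3. The log2 fold change was 2.57 (standard error 0.647, 95% interval 1.05 to 4.10), and edgeR's adjusted p was 0.0490, just under the threshold.

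The activating receptors that do not use this adaptor were not called. Clec7a (ENSMUSG00000079293, minus strand of chromosome 6, 129438554 to 129449742) encodes Dectin-1, the receptor for beta-glucans, which carries its own signalling motif. It was at 121, 123 and 136 CPM in CD36+ NK and at 95.02, 109.8 and 56.2 CPM in CD36- NK. The fractions did not overlap, yet the gap between them was only 1.10-fold. Its log2 fold change was 0.54 (standard error 0.227, 95% interval 0.00 to 1.07, edgeR adjusted p = 0.187). Clec5a (ENSMUSG00000029915, minus strand of chromosome 6, 40551828 to 40562755) encodes MDL-1, which pairs with DAP12. It was at 16.4, 6.25 and 5.15 CPM in CD36+ NK and at 13.8, 9.90 and 6.74 CPM in CD36- NK, so that the fractions overlapped. The highest library was again CD36+ NK replicate 1. Its log2 fold change was -0.14 (standard error 0.472, 95% interval -1.26 to 0.97, edgeR adjusted p = 0.891), an interval that includes a 2-fold difference downward.

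The DCIR family, named for an inhibitory receptor of dendritic cells, held the most abundant members. Clec4a1 (ENSMUSG00000049037, chromosome 6, 122898807 to 122911578) and Clec4a3 (ENSMUSG00000043832, 122929474 to 122946834) are neighbouring genes of the DCIR family on the plus strand. Clec4a1 was at 102, 175 and 186 CPM in CD36+ NK and at 54.2, 78.6 and 29.0 CPM in CD36- NK. Clec4a3 was at 122, 193 and 210.1 CPM in CD36+ NK and at 76.3, 89.6 and 35.5 CPM in CD36- NK. Both genes had the same order of libraries, with replicate 1 lowest among the CD36+ NK libraries and replicate 3 lowest among the CD36- NK libraries, and neither overlapped between fractions. The fold changes lay close together, at a log2 of 1.51 for Clec4a1 (standard error 0.375, 95% interval 0.63 to 2.40, edgeR adjusted p = 0.0465) and of 1.38 for Clec4a3 (standard error 0.352, 95% interval 0.55 to 2.21, edgeR adjusted p = 0.0510). Clec4a1 was therefore called and Clec4a3 was not, on values that differed by less than either standard error.

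Clec4a2 (ENSMUSG00000030148, chromosome 6, 123083387 to 123120958) encodes DCIR itself, which carries an inhibitory motif. It was at 32.0, 25.5 and 45.1 CPM in CD36+ NK and at 27.1, 24.4 and 11.2 CPM in CD36- NK, so that the fractions overlapped. Its log2 fold change was 0.70 (standard error 0.346, 95% interval -0.11 to 1.52, edgeR adjusted p = 0.253). Clec12a (ENSMUSG00000053063, chromosome 6, 129319654 to 129342266), an inhibitory receptor for uric acid crystals, was at 110.5, 143 and 169 CPM in CD36+ NK and at 76.8, 90.8 and 41.3 CPM in CD36- NK, without overlap. Its log2 fold change was 1.02 (standard error 0.291, 95% interval 0.33 to 1.70, edgeR adjusted p = 0.0698).

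Clec10a (ENSMUSG00000000318, plus strand of chromosome 11, 70047023 to 70061660), the galactose-type lectin MGL1 and the only member outside chromosome 6, had the lowest mean per length in CD36+ NK, although Clec5a was above it in only 1 of 3 libraries. It was at 6.05, 5.59 and 4.66 CPM in CD36+ NK and at 8.92, 9.81 and 5.76 CPM in CD36- NK, where only CD36- NK replicate 3 reached into the range of the other fraction. Its log2 fold change was -0.59 (standard error 0.244, 95% interval -1.16 to -0.02, edgeR adjusted p = 0.180). About 4.44% of its 75-base stretches also occur in transcripts of the paralog Mgl2, and 3.24% of those of Clec4a2 in other genes, mostly Clec4a4, so that a small part of their reads could have been assigned to the wrong copy. The other 8 members shared none.

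**Figure D1:**
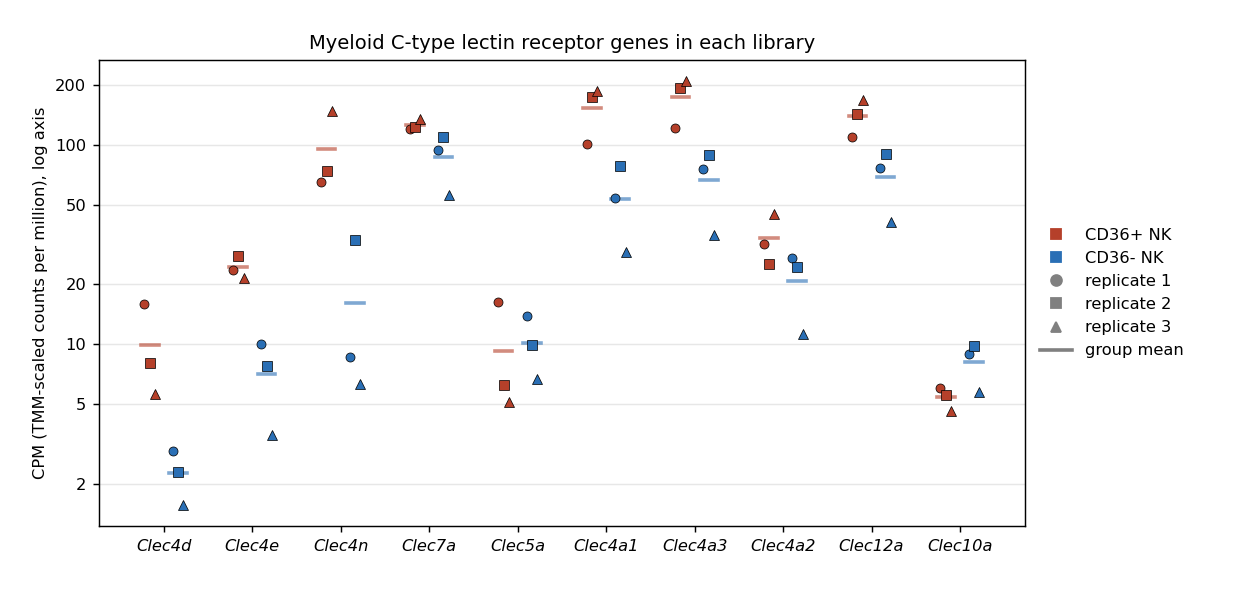
Level of each of the 10 receptor genes in every library, in CPM on a log axis, with CD36+ NK in red, CD36- NK in blue, symbols for replicates and bars for group means (n = 3 each). Clec4d, Clec4e and Clec4n separate the fractions most widely, while Clec4a2, Clec5a and Clec10a overlap.

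Levels between genes were compared as CPM per kilobase of exon. In CD36+ NK the order ran from Clec4a3 (132 ± 35.3) and Clec4a1 (99.0 ± 29.5) through Clec4n (67.7 ± 32.4), Clec7a (47.9 ± 3.02), Clec12a (25.5 ± 5.31) and Clec4a2 (11.7 ± 3.41) to Clec4d (6.19 ± 3.36), Clec4e (4.90 ± 0.633), Clec5a (2.41 ± 1.61) and Clec10a (1.87 ± 0.246; SD, n = 3). The ranges of neighbours overlapped except between Clec7a and Clec12a, Clec12a and Clec4a2, and Clec4e and Clec5a. In CD36- NK the order was Clec4a3 (50.6 ± 21.2), Clec4a1 (34.6 ± 15.9), Clec7a (33.0 ± 10.5), Clec12a (12.6 ± 4.62), Clec4n (11.4 ± 10.6), Clec4a2 (7.14 ± 2.90), Clec10a (2.82 ± 0.734), Clec5a (2.65 ± 0.926), Clec4e (1.43 ± 0.663) and Clec4d (1.41 ± 0.425). There the ranges separated only between Clec7a and Clec12a and between Clec4a2 and Clec10a. Clec4n stood before Clec7a and Clec12a in CD36+ NK and after both in CD36- NK, and Clec10a, last in CD36+ NK, stood before Clec5a, Clec4e and Clec4d in CD36- NK. Of the called genes, Clec4d and Clec4e were thus among the less abundant, while Clec4a1 was at rank 2 in both fractions and Clec4n at rank 3 in CD36+ NK. The scarce Clec5a and Clec10a had the lowest log2 fold changes, -0.14 and -0.59.

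The libraries of a fraction were not alike. CD36- NK replicate 3 was the lowest CD36- NK library for 10 of 10 members and the lowest of all 6 for 8, and CD36+ NK replicate 3 was the highest of all 6 for 6 members (Clec4a1, Clec4a2, Clec4a3, Clec4n, Clec7a and Clec12a). Csf1r, the receptor on which macrophages depend, had a like order, at 1138, 1726 and 2342 CPM in CD36+ NK and 411, 748 and 242 CPM in CD36- NK. The summed level of the 10 members was 614, 782 and 932 CPM in CD36+ NK and 374, 456 and 197 CPM in CD36- NK. Pearson's r of log2 CPM between Clec4e and Clec4a3 was 0.93 over the 6 libraries, which share the difference between fractions, and that between Clec4e and Clec5a was 0.00.

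**Figure D2:**
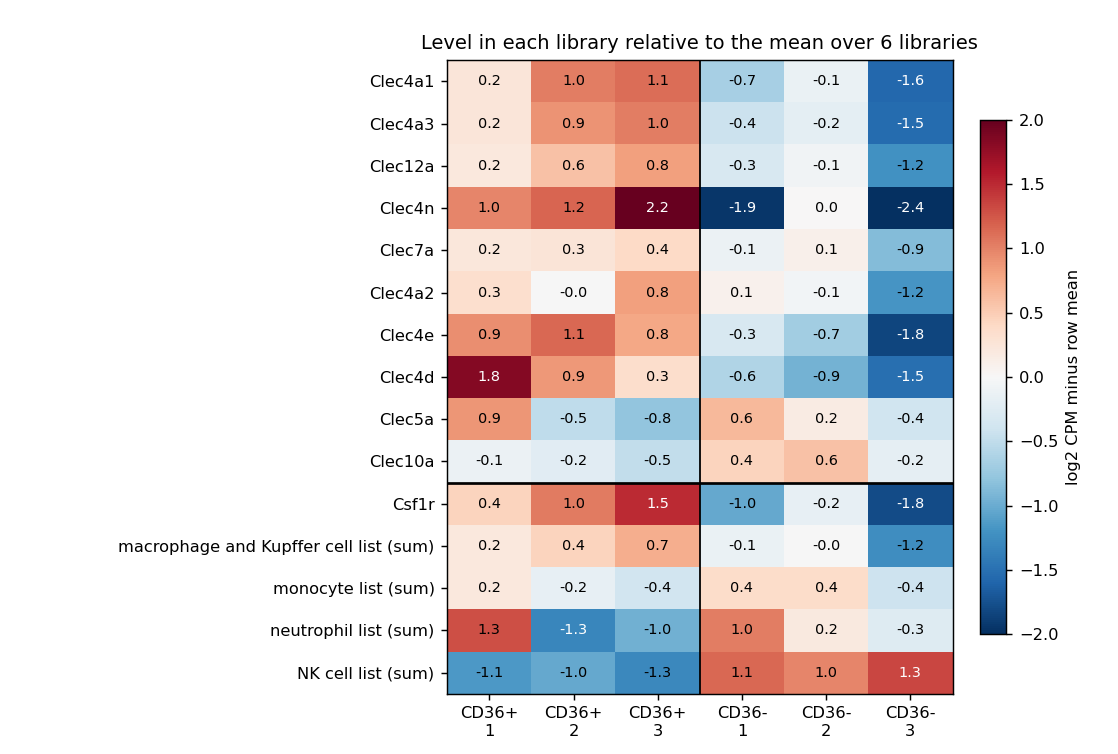
Log2 CPM of each receptor gene, of Csf1r and of the summed marker lists in each of the 6 libraries, minus the mean of that gene or list over the libraries, with the colour scale ending at 2 and -2. Most receptor genes are lowest in CD36- NK replicate 3, as are Csf1r and the macrophage list, and Clec5a and Clec4d are highest in CD36+ NK replicate 1, where the neutrophil list is highest too.

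The members were also set against 2 references, the summed macrophage and Kupffer cell list and Csf1r. Both were higher in CD36+ NK, so that most genes are lower as such a ratio. The summed reference was largely a level of Lyz2, which supplied most of it in every library except CD36+ NK replicate 3 (35.9%). Lyz2 itself overlapped between the fractions and was not called (log2 fold change 0.10, edgeR adjusted p = 0.882). As a log2 ratio to the summed macrophage and Kupffer cell list, 4 members were higher in CD36+ NK without overlap (Clec4e, Clec4n, Clec4a1 and Clec4a3), 2 were lower without overlap (Clec7a and Clec10a) and 4 overlapped. Of all 14761 tested genes, 2.74% were higher and 59.2% lower without overlap by the same ratio. The mean log2 ratio of Clec4n was -6.50 in CD36+ NK, 1.96 above that of -8.45 in CD36- NK. For Clec10a the means were -10.55 and -9.07, a difference of -1.48. As a log2 ratio to Csf1r alone, no member was higher without overlap and 6 were lower (Clec4a1, Clec4a2, Clec4a3, Clec7a, Clec10a and Clec12a), with Clec4e at -6.10 and -6.02, a difference of -0.08. By this ratio 0.752% of all tested genes were higher and 85.7% lower without overlap, so that the 6 of 10 lower is not a result about the members. For 2 genes, Clec4a1 and Clec4a3, the fractions thus separated in opposite directions under the 2 references, from differences of 0.66 and 0.53 to -0.40 and -0.54. These ratios are descriptions, and whether the members differ per macrophage was not tested.

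The calls were sensitive to single libraries, as were those of all genes. With each library left out in turn, the number of members called, 4 with all libraries, was 4 without CD36+ NK replicate 1, 0 without CD36+ NK replicate 2, 1 without CD36+ NK replicate 3, 1 without CD36- NK replicate 1, 5 without CD36- NK replicate 2 and 1 without CD36- NK replicate 3. Over all tested genes the number called higher, 440 with all libraries, was in the same order 568, 120, 132, 94, 708 and 143. Clec4e lost its call without CD36+ NK replicate 2 (log2 fold change 1.66, edgeR adjusted p = 0.0797) and without CD36+ NK replicate 3 (1.85, 0.0602). Clec4d lost it without CD36+ NK replicate 2 (log2 fold change 2.24, edgeR adjusted p = 0.0697) and without CD36- NK replicates 1 (2.34, 0.0784), 2 (2.12, 0.0583) and 3 (1.91, 0.104). Clec4a1 lost it without CD36+ NK replicates 2 (log2 fold change 1.42, edgeR adjusted p = 0.132) and 3 (1.36, 0.141) and without CD36- NK replicates 1 (1.499, 0.135) and 3 (1.20, 0.0884). Clec4n lost it without each library but CD36- NK replicate 2, with log2 fold changes from 2.11 to 2.78 and edgeR adjusted p-values from 0.0506 to 0.145. Clec4a3 was called without CD36+ NK replicate 1 (edgeR adjusted p = 0.0373) or CD36- NK replicate 2 (0.0393), and Clec12a without CD36- NK replicate 2 (0.0434). The direction was steadier than the call: Clec4a1, Clec4a2, Clec4a3, Clec4d, Clec4e, Clec4n, Clec7a and Clec12a stayed above 0 and Clec10a below 0 in each of the 15 settings run, the main one included, while Clec5a changed sign. The replicate 1 libraries, so numbered by their titles and named in another form than the rest, gave a log2 ratio of 1.25 for Clec4e, 2.45 for Clec4d, 2.92 for Clec4n and 0.91 for Clec4a1 when set against each other. Among the other 4 libraries the log2 fold changes were 2.10, 1.81, 2.47 and 1.73, with edgeR adjusted p-values of 0.0674, 0.0690, 0.161 and 0.122, so that none was called.

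Most members sit in 2 gene clusters on chromosome 6, whose other genes were measured too. The Clec4 cluster from Clec4a1 to Clec4e spans 368 kb and holds 13 genes, of which 8 were tested. Besides the 6 members these were Clec4a4 (log2 fold change 1.01, edgeR adjusted p = 0.106) and Clec4b1 (1.73, edgeR adjusted p = 0.105), neither called by edgeR but both without overlap, and DESeq2 called Clec4b1 higher. Both genes were at most 13.9 CPM in any library. The stretch from Clec12a to Clec7a spans 130.1 kb and holds 7 genes, 5 of them tested. There the neighbours Clec1b (log2 fold change 2.83, edgeR adjusted p = 0.0334) and Clec9a (2.03, edgeR adjusted p = 0.0204), a receptor of dendritic cells for dead cells, were called higher by edgeR, which called neither member at the ends, while DESeq2 called Clec12a higher. A transcript inside Clec9a, Gm43914, had a log2 fold change of 1.52 (edgeR adjusted p = 0.0638), and reads of overlapping genes may have been split between them.

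**Figure D3:**
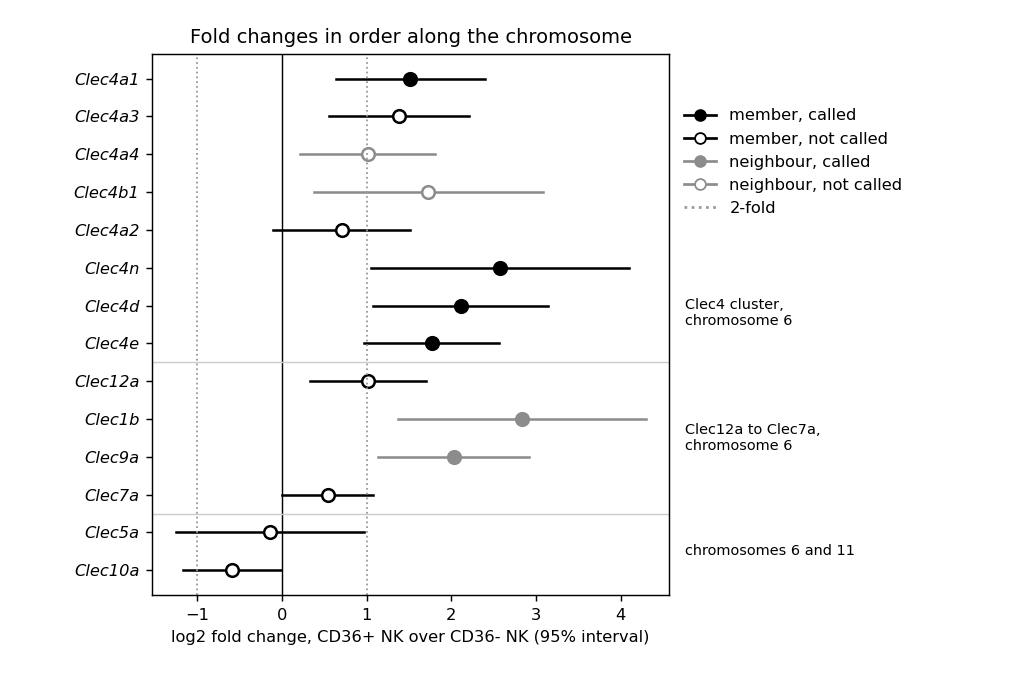
Log2 fold change of CD36+ NK over CD36- NK with its 95% interval for the 10 members (black) and the tested lectin neighbours in their clusters (grey), in order along the chromosome, with filled points for called genes and dotted lines at 2-fold. In the Clec4 cluster every point lies above 0, and Clec4n has the highest member value at 2.57, while Clec5a and Clec10a lie below 0.

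The molecules through which these receptors signal were mostly not called. Of 25 tested signalling genes, edgeR called 0 lower, where 3 were lower at an unadjusted p below 0.05, DESeq2 called 0 and 2.98% of tested genes were called in this direction by edgeR. The median log2 fold change of the list was 0.08. Syk, the kinase that most activating members use, was at 1064 ± 41.1 and 854 ± 28.7 CPM (log2 fold change 0.32, edgeR adjusted p = 0.0612), and the phosphatase Ptpn6 at 633 ± 27.1 and 438 ± 71.9 CPM (0.53, edgeR adjusted p = 0.0512). None of the adaptors of the members was called. Fcer1g, which Clec4e, Clec4d and Clec4n need at the surface, had a log2 fold change of 0.07 (edgeR adjusted p = 0.803), and Tyrobp, the partner of Clec5a, had -0.38 (edgeR adjusted p = 0.0938). NK cells use both adaptors for their own receptors. Hcst, an adaptor shared by Clec5a and the NK receptor NKG2D, was at 17.2 ± 1.38 CPM in CD36+ NK and 32.8 ± 2.29 CPM in CD36- NK (-0.92, edgeR adjusted p = 0.00589), a decrease of less than 2-fold.

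Of 6 genes for endogenous ligands of the members, 5 were tested and edgeR and DESeq2 called none, with 1 higher and 1 lower at an unadjusted p below 0.05 and a median log2 fold change of -0.19. Vim, the intermediate filament that Dectin-1 binds, was at 355 ± 74.7 and 557 ± 52.9 CPM (log2 fold change -0.65, edgeR adjusted p = 0.0470), and Anxa1 at 142 ± 89.0 and 224 ± 48.03 CPM (-0.66, edgeR adjusted p = 0.357).

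Among 17 genes that such signalling is known to induce, 15 were tested, and 5 rose and 2 fell, with a median log2 fold change of 0.26. Those higher in CD36+ NK were the cytokine genes Il1b (log2 fold change 2.77) and Il10 (2.84), the neutrophil chemokines Cxcl1 (3.26) and Cxcl2 (2.17), and the inflammasome sensor Nlrp3 (1.14), with edgeR adjusted p-values from 0.000428 to 0.0274. Those lower were the chemokines Ccl3 (-1.42, edgeR adjusted p = 0.0353) and Ccl4 (-1.89, edgeR adjusted p = 0.00969), which NK cells themselves make in quantity. Egr1, the most abundant gene of the list, was at 353 ± 67.0 and 294 ± 128 CPM (0.26, edgeR adjusted p = 0.652).

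Other C-type lectin and lectin-like receptors were tested for 18 of 36 listed genes, of which 4 were called higher (Clec1b, Clec9a, Thbd and Cd302) and 0 lower (1 at an unadjusted p below 0.05, and 0 by DESeq2), with a median log2 fold change of 0.67. DESeq2 called 7 higher, these 4 with Clec4b1, Mrc1 and Olr1. Thbd, thrombomodulin, had a log2 fold change of 1.61 and Cd302 of 1.77 (edgeR adjusted p = 0.0145 and 0.0476). The macrophage mannose receptor Mrc1 varied widely, at 377 ± 238 and 51.7 ± 58.7 CPM (2.87, edgeR adjusted p = 0.0787), and the activation marker Cd69 was at 227 ± 11.8 and 271 ± 101 CPM (-0.26, edgeR adjusted p = 0.614).

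Of 16 transcription factors of myeloid cells, all tested, those called higher included Cebpb (log2 fold change 1.27, edgeR adjusted p = 0.0101) and Mitf (2.46, edgeR adjusted p = 0.0373). None was called lower by edgeR or DESeq2, and 0 were lower at an unadjusted p below 0.05. The median was 0.72. Of the factors known to bind the promoter motifs above, Spi1 was at 122 ± 10.1 and 74.2 ± 12.04 CPM (0.71, edgeR adjusted p = 0.0200), past the adjusted p but under the fold threshold, and the C/EBP genes other than Cebpb had log2 fold changes of 0.19 (Cebpa), 0.54 (Cebpd) and -0.51 (Cebpe), none of them called. The most abundant factors, Irf8 and Klf4, had log2 fold changes of -0.42 and 0.58 (edgeR adjusted p = 0.503 and 0.121).

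Over the 5 related lists 15 genes were called in all, and this number ran from 5 without CD36+ NK replicate 2 to 21 without CD36- NK replicate 2, with 8 without CD36+ NK replicate 3 and 6 without CD36- NK replicate 1 or 3.

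**Figure D4:**
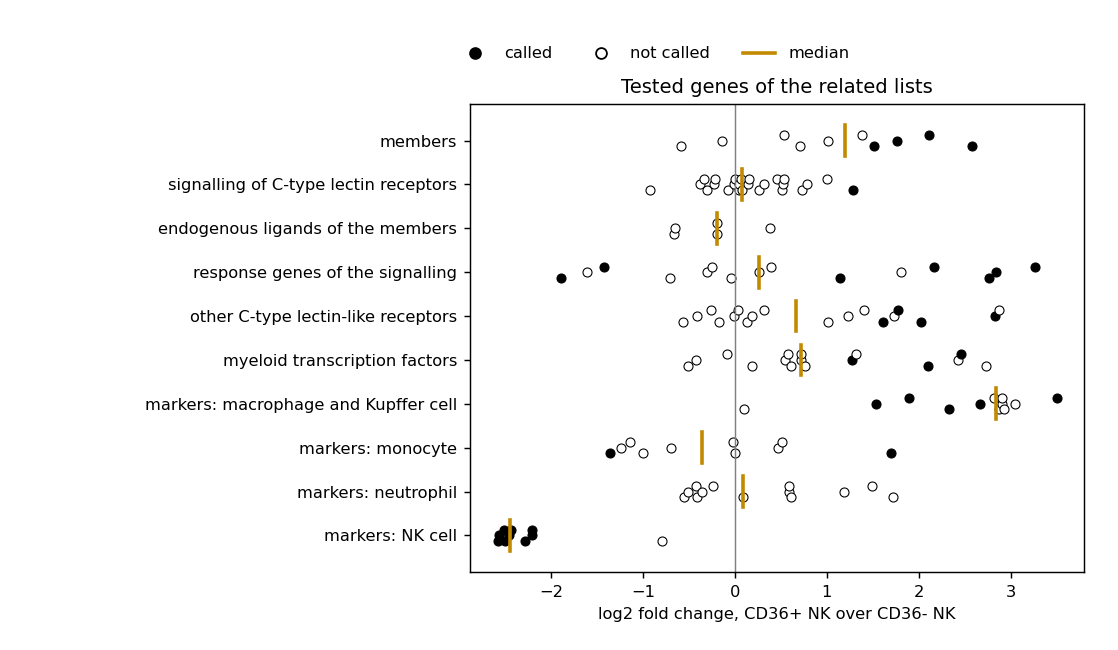
Log2 fold change of CD36+ NK over CD36- NK of every tested gene in the receptor group, the related lists and 4 marker lists, with filled points for called genes and a gold bar at each list's median. The receptors have a median of 1.20 and the signalling genes one of 0.08, between the macrophage markers at 2.84 and the NK cell markers at -2.45.

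The remaining marker lists give the setting of these values. Of 10 monocyte markers edgeR called 1 higher, Cd14 (1.70), and 1 lower, Ccr2 (-1.35), DESeq2 called 1 higher and 3 lower (Ccr2, F13a1 and Ly6c2), and 1 was higher and 4 were lower at an unadjusted p below 0.05. Their log2 fold changes had a median of -0.36, and 7 of the 10 lay below 0. The most abundant, Fn1 and Plac8, had log2 fold changes of 0.00 and 0.47, with summed levels of 1569 to 2363 CPM in CD36+ NK and 1522 to 2638 CPM in CD36- NK. Of the neutrophil markers the most abundant were Ngp (-0.41) and S100a9 (-0.36), with summed levels of 950 to 5759 CPM in CD36+ NK and 1967 to 4758 CPM in CD36- NK. Conventional dendritic cell markers were called higher for 2 of 9 (Xcr1 and Clec9a) and lower for 1 (Itgax, -1.13), and the sum ranged from 1993 to 2073 CPM against 1762 to 1966, most of it H2-Ab1 (0.37). B cell markers summed to 4231 to 4725 CPM against 2717 to 3119, among them Cd79a (0.49), with 1 of 6 called higher. Plasmacytoid dendritic cell markers summed to 141 to 174 and 108 to 161 CPM with 1 of 6 called lower by edgeR, Cox6a2 (-1.52), and 1 higher by DESeq2, Ccr9, while the most abundant, Tcf4 (0.18) and Bst2 (0.38), were not called. Sinusoidal endothelial markers summed to 224 to 311 and 155 to 171 CPM with 1 of 4 called higher, Stab1 (3.02), while the most abundant, Pecam1 (0.38) and Stab2 (2.79), were not called by edgeR and DESeq2 called Stab2 too. The T cell markers Cd4 (2.34) and Cd8a (3.17) were called higher, 2 of 6 in that list, and the sum was 255 CPM in CD36+ NK replicate 1 against 22.4 to 44.5 CPM in the other 5 libraries.

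By library profile, the 5 genes most like Clec4e, the member of lowest p, over the 6 libraries were Dync2i1, Lman2l, Fcrla, Atp6v0c and H2-DMa, with Pearson's r of log2 CPM from 0.996 to 0.998 among 14760 genes. The 5 most like Clec4a3, the member with the most counts, were 3110082I17Rik, Smpdl3a, Ctsa, Bri3bp and Ywhag (0.997 to 0.998). These values share the difference between the fractions and are given as a description.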

How the data were processed

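RNA-seq covered 3 samples each of CD36+ NK and CD36- NK. Per the labels and the methods, the authors filtered reads, aligned them with HISAT2 (2.0.4 in the submitters' processing notes) and counted them per gene, and they deposited raw counts of 57180 genes beside FPKM values. The deposited FPKM values, counts per gene length and library total, were not tested. The processing notes name the rat build mRatBN7.2, whereas the gene identifiers are those of mouse. The mouse build is not given in the sources used here, so positions are the table's own. The lines of 2 genes, broken in the table, were rejoined. Groups and replicate numbers follow the sample titles. The library names of CD36+ NK write CD36 with a double hyphen and those of CD36- NK with a single one, and those of CD36- NK carry other numbers than the titles (6, 1 and 2 for replicates 1, 2 and 3), so every value that rests on shared numbers depends on the numbering.

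The 10 genes and all lists were chosen with earlier results of these data known, and so were the tests. Counts were filtered with filterByExpr (minimum count 10), scaled by TMM and compared by the quasi-likelihood test of edgeR 4.0.16 in R 4.3.3 without a block, with Benjamini-Hochberg adjustment over 14761 genes. The standard error is the size of the log2 fold change over the root of F. The total counts of 10292480 to 13787189 per library put the level of 3 counts at 0.221 to 0.293 CPM, which covers counting error only. Replicates of a fraction differed by more than sampling noise (chi-square per degree of freedom 13.5 to 26.5). Levels per kilobase used exon lengths of GENCODE vM21, and 75-base stretches of its transcripts were compared between genes. Pearson's r used a pseudocount of 2. On simulated counts of the same comparison, 187 of 200 genes changed by a log2 of 2 (93.5%) were recovered among 14761, with 3 unchanged genes called. The simulated spread between replicates followed the trend over all genes, not each gene's own, and the change was above that fitted for most members. The share recovered therefore does not give the share expected for the members. Alternatives were other scalings, DESeq2 1.42.0, other filters and fold thresholds, blocks and libraries left out. Named genes beside the members were Cd36 and Klrb1c, the called genes of each related list (up to 6 of lowest p) with its 2 of highest mean count, the 2 marker genes of highest mean count, and the 5 genes most like the member of lowest p and the member of most counts. Other called markers, cluster neighbours, adaptors and Spi1 were named after their values were seen. Some genes that meet this rule are not reported here.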

Additional observations from a re-analysis of the deposited data

How the results depend on the processing

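The fitted directions of the members held under the alternatives more often than their calls. Of 80 member values under alternatives other than leaving out a single library, 67 kept their direction and call, 9 lost a call, 4 gained one and 0 changed sign. The number of members called higher, 4, became 6 under DESeq2, 5 under upper-quartile scaling, 5 with 10 counts asked of every library, 2 without a filter on low counts, 2 at a fold threshold of 4 and 0 without both replicate 1 libraries, and it ran from 0 to 5 when single libraries were left out. Over all genes, 440 called higher became, under the first 4 of these settings, 652, 451, 357 and 358, and 749 without a fold threshold, 182 at a fold threshold of 4 and 106 without both replicate 1 libraries, and 440 called lower became 803 without a fold threshold and 194 at a fold threshold of 4. The 15 calls in the related lists became 24 without a fold threshold, 8 at a fold threshold of 4 and 6 without both replicate 1 libraries. Leaving out single libraries gave 94 to 708 genes higher, 288 to 554 lower and 5 to 21 list calls, and the share of calls that were higher ran from 22.5% to 61.0%. DESeq2 called 1143 genes, 652 higher, against 880.

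Without a filter on low counts the log2 fold change of Clec4a1 was 1.52 (edgeR adjusted p = 0.0616) and that of Clec4n 2.58 (0.0630). The fit with the form of the library name as a block gave 1.47 for Clec4a1 (edgeR adjusted p = 0.0607). Without both replicate 1 libraries no member was called, at 1.73 for Clec4a1, 1.81 for Clec4d, 2.10 for Clec4e and 2.47 for Clec4n. Clec4a3 was called under upper-quartile scaling (1.37, edgeR adjusted p = 0.0492), with 10 counts asked of every library (1.38, 0.0495) and under DESeq2 (1.38, DESeq2 adjusted p = 0.000495), and so was Clec12a under DESeq2 (1.01, 0.00473). Single libraries left out gave 1.20 to 1.88 for Clec4a1, 1.07 to 1.64 for Clec4a3, 1.58 to 2.39 for Clec4d, 1.45 to 2.09 for Clec4e, 2.11 to 3.67 for Clec4n, 0.74 to 1.25 for Clec12a and -0.85 to 0.14 for Clec5a, whose sign turned in 3 of these fits, those without replicate 2 of CD36+ NK (0.08), without its replicate 3 (0.14) and without replicate 1 of CD36- NK (0.14). Leaving out libraries lowers the number of samples, and the cause of the other changes was not tested.

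The replicate numbers of the titles were also used as a replicate block. Deviations of same-numbered libraries from their fraction means had correlations across genes of 0.367, 0.0871 and -0.0860 for numbers 1 to 3. The value for number 1, whose libraries also share the form of their names, was the highest of any pair. Not every library correlated best with its own number, as CD36+ NK replicate 3 did with CD36- NK replicate 2 (0.288). Whether same-numbered samples came from the same mice is not stated, and these correlations cannot decide it. The library names carry other numbers, which would match CD36+ NK replicate 1 to CD36- NK replicate 2 (correlation -0.298), and likewise the second CD36+ NK library to the third CD36- NK library (0.130). No fit used that numbering. The block gave 560 calls, 221 of them higher (39.5%), and left 2 members called, Clec4e and Clec4d, with Clec4a1 at 1.56 (edgeR adjusted p = 0.0784) and Clec4n at 2.78 (0.0812).

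Clec4d, Clec10a and Clec5a had the fewest counts, 437, 486 and 692 over the 6 libraries, although the standard error of Clec10a (0.244) was below that of Clec4a1 (0.375), which had 7649 counts. With 3 libraries a fraction, intervals of the log2 fold change were as wide as 1.05 to 4.10 for Clec4n.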

Other observations

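The untested genes Clec4f and Vsig4, markers of resident liver macrophages, had most of their counts in a single library. Clec4f, a C-type lectin of Kupffer cells, had 17, 624 and 0 counts in CD36+ NK replicates 1 to 3 and 0 in each CD36- NK library, and Vsig4 had 10, 181 and 6 counts in CD36+ NK and 0, 3 and 0 in CD36- NK. Both fell short of the filter on low counts and were not tested. Other markers of these cells had another order, with Timd4 at 93, 199 and 284 counts, Marco at 162, 429 and 571, Cd5l at 1451, 3222 and 5464 and Cd163 at 501, 805 and 1506 in CD36+ NK replicates 1 to 3, all highest in replicate 3.

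Of the other lectins near the members, Clec4b2 had 39 counts, Clec1a 20 and Clec12b 1 over the 6 libraries, too few for a test.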
